A study of Triticum aestivum with 12 samples.

Results

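Bread wheat carries 3 related subgenomes, A, B and D, so that most genes on chromosome 1B have close relatives, the homeologs, on chromosomes 1A and 1D. Genes of wheat chromosomes are numbered in order in the annotation, and a run of consecutive numbers is therefore a run of neighbouring genes. The genes described here are those of 1 stretch of chromosome 1B, with identifiers from TraesCS1B02G088400 to TraesCS1B02G129900, leaving out TraesCS1B02G119300 and TraesCS1B02G110400. The stretch was selected on the counts of E82 and WT in these same libraries. Nearly all of its genes with enough counts in WT to judge were low in the RNAi line E82. The differences between E82 and WT within it are therefore given as a description without a test. It holds 410 genes, or 0.38% of the 107892 genes in the count table. Positions in bases were not used here, and the order of the identifiers stands in for them.

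RNA was sequenced from developing grain and flag leaf of E82 and of its parent line BW208, used as the wild type (WT). E82 carries pGhp-ω/α and pghp8.1, plasmids with inverted repeats of ω-, α- and γ-gliadin gene sequences behind endosperm-specific promoters, and was selfed over several generations. Gliadins are storage proteins of the grain, and the hairpin RNAs transcribed from the repeats silence their genes. Each line and tissue has 3 libraries from different greenhouse plants collected during grain filling, 12 in all, and the 4 groups are E82 grain, WT grain, E82 leaf and WT leaf. E82 is a single transgenic line, so what belongs to that line and what belongs to the hairpin RNAs cannot be told apart, and in whole tissue neither can fewer cells of a type and less RNA per cell.

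Total counts per library ranged from 27172814 to 59921014, and 3 counts, the floor used for genes without counts, equalled 0.0501 to 0.11 CPM, which scales a count by its library's total. This floor covers counting error only. The number of genes with at least 1 count was 58338 to 60735 in E82 grain, 60944 to 64874 in WT grain, 55916 to 59840 in E82 leaf and 31558 to 45655 in WT leaf. The WT leaf libraries thus detected fewer genes than any other group, and their biological coefficient of variation of 1.71 compares with 0.386 in E82 leaf, 0.683 in E82 grain and 0.643 in WT grain. The part of this difference in the leaf values below was not tested. As a check of tissue, the summed TPM (a level per transcript length) of 6 grain genes, among them the globulin genes Glo3 and the transcription factor gene TaPBF, was 2950 to 3130 in E82 grain, 3400 to 4940 in WT grain, 0.0378 to 0.317 in E82 leaf and 0 to 12.2 in WT leaf. Of the sugar transporter gene TaSWEET13, 2 copies summed to 478 to 1300 TPM in E82 leaf, 6210 to 9480 in WT leaf, 0 to 0.542 in E82 grain and 0.103 to 0.286 in WT grain. In E82 grain the first sum came from the 2 Glo3 genes, while the 3 TaPBF copies stood at 0 to 2.01 TPM, against 3.21 to 40.3 TPM in WT grain, and the transporter gene OsBT1-1 at 0 TPM, against 1.22 to 12.3 TPM in WT grain. Glo3 and TaSWEET13 thus separated grain from leaf in each line, and TaPBF and OsBT1-1 did so in WT alone. The sources used here give no identifiers for gliadin genes, so the silenced genes themselves were not checked.

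The stretch contributed far fewer counts to E82 libraries than to WT libraries in both tissues. Its genes summed to 1509, 1178 and 855 counts in the E82 grain libraries, against 141814, 139647 and 132752 in the WT grain libraries. In leaf the sums were 2236, 3123 and 2540 counts in E82, against 120458, 123684 and 79795 in WT. As a share of the library this was 0.00292% ± 0.00039 in E82 grain and 0.281% ± 0.012 in WT grain (SD, n = 3 each), so that E82 held 1.04% of the WT share. The share in leaf was 0.00463% ± 0.000948 in E82 and 0.307% ± 0.0161 in WT (SD, n = 3 each), or 1.51% of the WT share. The 3 libraries of each group lay close together on this scale, and WT grain and WT leaf gave like shares.

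**Figure D1:**
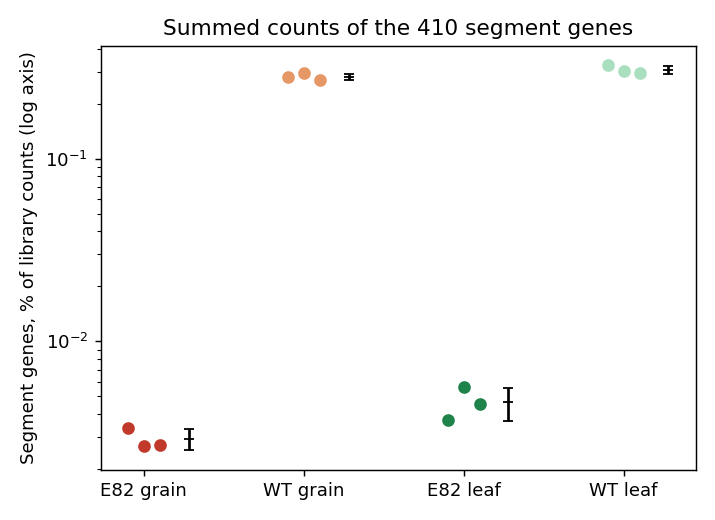
Summed counts of the 410 genes as a percent of all counts of the library, on a log axis, with 1 point per library and the mean and SD of the group beside it. The E82 libraries lie between 0.00269% and 0.00562%, and the WT libraries between 0.269% and 0.325%.

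In total, 121 of the 410 genes had no count in any of the 12 libraries, which is 29.5% of them, against 25.6% of all genes. A gene is called counted in a tissue if none of its WT libraries there held under 10 counts. In grain 184 of the 410 genes were counted (44.9%, against 48.6% of all genes), and in leaf 88 (21.5%, against 23.2%). Both tissues counted 79 of them, grain alone 105, leaf alone 9 and neither tissue 217. Per library, 18, 25 and 22 genes had at least 10 counts in E82 grain, against 220, 212 and 217 in WT grain, and 32, 37 and 36 in E82 leaf, against 161, 151 and 101 in WT leaf. In WT the stretch was therefore counted about as often as the rest of the genome.

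The levels of the counted genes in WT also lay near those of all counted genes. The median in WT grain was 2.48 TPM, against 3.04 TPM over all counted genes, with a range from 0.143 to 161 TPM. In WT leaf the median was 8.03 TPM, against 8.57 TPM, with a range from 1.21 to 209 TPM. At least 10 TPM was reached by 33 genes in WT grain and 39 in WT leaf, and at least 50 TPM by 4 and 8 genes. The 6 genes with the highest TPM held 31.8% of the summed TPM of the stretch in WT grain, and those of leaf 32.1%. Across the 79 genes counted in both tissues, which share the libraries, the log2 TPM of WT grain and WT leaf had a Pearson correlation of 0.459.

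Most genes that WT grain expressed had no counts or nearly none in E82 grain. A gene is called silent here if no E82 library of the tissue held over 3 counts, kept if each E82 library held at least 10 counts and the mean CPM in E82 was at least 0.5 of that in WT, and reduced otherwise. Of the 184 genes counted in WT grain, 150 were silent (81.5%), 32 reduced (17.4%) and 2 kept (1.09%), where 1.6% of all genes counted in WT grain were silent and 85.1% kept. No count at all in E82 grain was found for 130 of the 150. The median level in E82 was 0.0% of that in WT over the 184 genes, against 98.7% over all counted genes. Since silent genes lack counts in E82, their folds are bounds against the floor of 3 counts per library, and these ran from at least 4.52-fold to at least 3420-fold lower, with a median of 85.6-fold.

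Leaf gave a like picture. Of the 88 genes counted in WT leaf, 60 were silent (68.2%), 27 reduced (30.7%) and 1 kept (1.14%), where 0.504% of all genes counted in WT leaf were silent and 85.0% kept. No count in any E82 leaf library was found for 44 of the 60. The median level in E82 was 0.00223% of that in WT, against 98.0% over all counted genes, and the bounds of the silent genes ran from at least 50.4-fold to at least 2400-fold lower, with a median of 212-fold. The number of silent genes depended on WT leaf replicate 3, the library with the lowest total, since 95 of 132 counted genes were silent without it.

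Of the 193 genes counted in at least 1 tissue, 144 (74.6%) were silent wherever they were counted. Among the 79 genes counted in both tissues, 51 were silent in both, 10 in grain only, 5 in leaf only and 13 in neither. The longest run of counted genes that were all silent was 17 in grain and 9 in leaf.

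**Figure D2:**
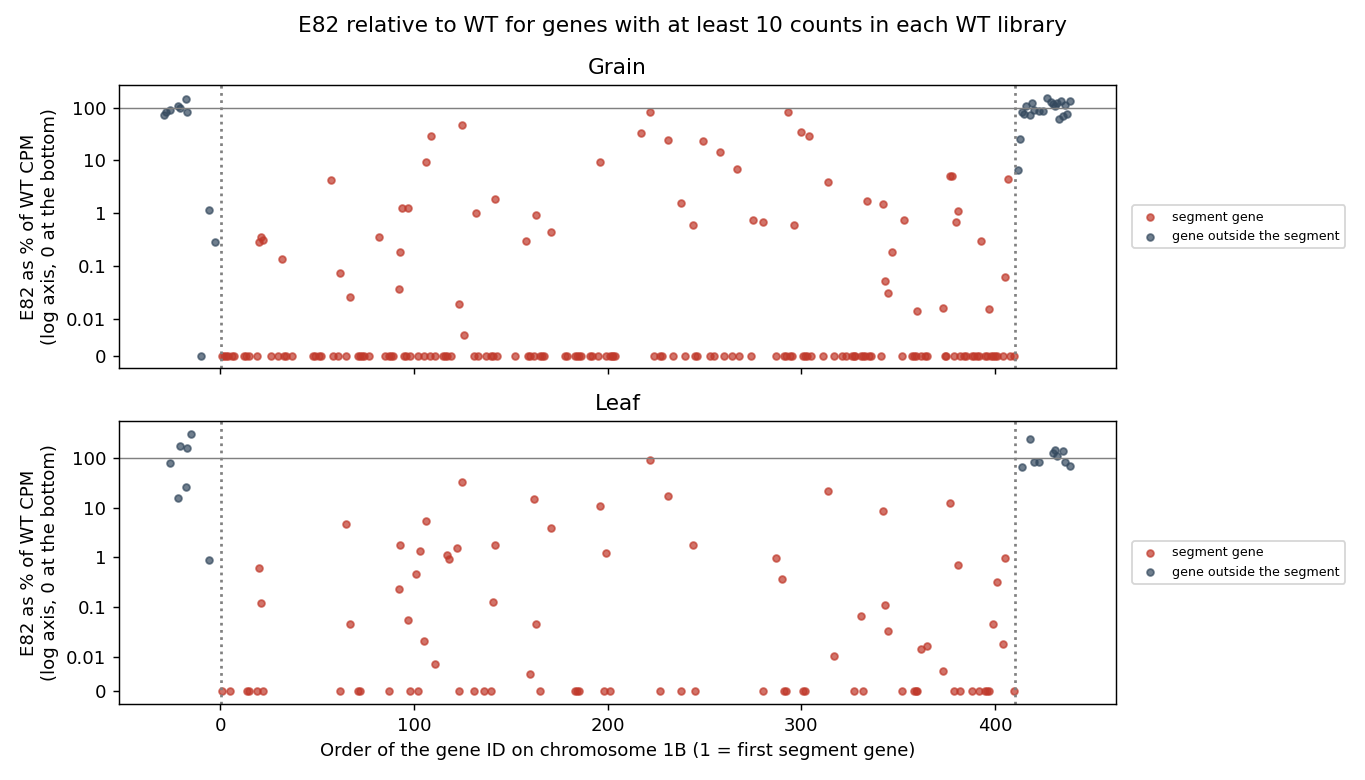
Mean CPM in E82 as a percent of that in WT on a log axis, with values of 0 drawn at the bottom, for each gene counted in WT grain (top) and WT leaf (bottom), in the order of the gene identifiers. Dotted lines mark both ends of the 410 genes, and 30 genes are drawn beyond each end. Within the stretch most points lie at 0 or under 10%, and beyond it most lie near the grey line at 100%.

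Cut into 10 windows of 41 genes each, the stretch was low from end to end. The share of counted genes that were silent in grain lay between 58.3% and 94.7% by window. The summed CPM of a window in E82 grain was 0.314% to 2.06% of that in WT grain in 9 of the windows. The remaining window, from TraesCS1B02G109200 to TraesCS1B02G113500, reached 11.0% in grain and 8.41% in leaf, and it holds TraesCS1B02G111100, a kept gene described below. The other windows lay between 0.683% and 3.9% in leaf.

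At both ends the change from low to kept genes lay outside the chosen limits. Among counted genes it fell between TraesCS1B02G087300 and TraesCS1B02G086800 at the first end. At the other end it lay closer, between TraesCS1B02G130200 and TraesCS1B02G130300. Just inside the first limit, TraesCS1B02G088400 had 0 counts in each E82 grain library, against 26, 70 and 26 in WT grain, and 0 counts in each E82 leaf library, against 753, 517 and 100 in WT leaf. The next genes were TraesCS1B02G088500, with 0 counts in E82 grain against 529, 242 and 165 in WT grain, and TraesCS1B02G088600, with 0 against 571, 1752 and 214. Neither had a count in leaf of either line. Just outside, TraesCS1B02G088100, TraesCS1B02G088200 and TraesCS1B02G088300 had no count in any library. TraesCS1B02G088000 had 2, 0 and 0 counts in E82 grain, against 265, 166 and 220 in WT grain. Further out, TraesCS1B02G087300 also had 0 counts in each E82 grain library, against 1019, 883 and 857 in WT grain, and TraesCS1B02G087700 had 18, 1 and 0 counts in E82 grain, against 450, 654 and 456 in WT grain, and 7, 0 and 9 in E82 leaf, against 492, 495 and 369 in WT leaf. The nearest kept gene, TraesCS1B02G086800, stood at 310% of WT in leaf and had no count in grain of either line. TraesCS1B02G086600 stood at 83.7% of WT in grain and 161% in leaf. Beyond it, TraesCS1B02G086500 and TraesCS1B02G086100 were kept in grain but reduced in leaf, at 26.6% and 15.5% of WT. The genes beyond the nearest 3 at each end were picked out after their values were seen.

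At the other end, TraesCS1B02G129900 had 0 counts in each E82 grain library, against 1338, 815 and 1720 in WT grain, and 0 in each E82 leaf library, against 1347, 1309 and 553 in WT leaf. TraesCS1B02G129800 had no count in any library, and TraesCS1B02G129700 had 0 counts in E82 grain against 74, 17 and 73 in WT grain, and 0 in E82 leaf against 40, 0 and 367 in WT leaf. Outside the limit, TraesCS1B02G130000 had no count in E82, against 22, 0 and 0 in WT grain and 163, 138 and 0 in WT leaf. TraesCS1B02G130100 had 38, 0 and 0 counts in E82 grain, against 211, 208 and 120 in WT grain. TraesCS1B02G130200 stood at 25.6% of WT in grain and was not counted in WT leaf, with 7, 33 and 0 counts in E82 leaf against 63, 0 and 156 in WT leaf. The next gene, TraesCS1B02G130300, stood at 83.5% in grain and 67.1% in leaf. Of the 30 genes after the stretch, 21 were counted in WT grain, of which 19 were kept and 0 silent, and 10 in WT leaf, all of them kept. Of the 30 genes before it, 10 were counted in WT grain, of which 7 were kept and 2 silent, and 7 in WT leaf, of which 4 were kept and 0 silent.

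Of the 6 genes with the highest levels in WT grain, 5 were silent in E82 grain. The sources used here give no name or function for them. TraesCS1B02G120600, with 161 ± 49.2 TPM in WT grain and 56.0 ± 22.7 TPM in WT leaf (SD, n = 3 each), had 0 counts in each E82 grain library, against 9171, 10315 and 14962 in WT grain. In leaf it had 1, 0 and 0 counts in E82, against 2875, 3656 and 1010 in WT. It was therefore at least 3420-fold lower in E82 grain and at least 1080-fold lower in E82 leaf, and no E82 library came near a WT library.

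TraesCS1B02G101100 was seen in grain alone, with 1, 0 and 0 counts in E82 and 7956, 5717 and 5076 counts in WT (77.9 ± 12.4 TPM, SD, n = 3), which is at least 1930-fold lower in E82. TraesCS1B02G124600 likewise had 0 counts in E82 grain and 10555, 13500 and 3461 in WT grain, at least 2810-fold lower, and no count in leaf of either line. TraesCS1B02G104500 had 0 counts in E82 grain, against 21788, 4131 and 3070 in WT grain. Its bound of at least 3170-fold rested on WT grain replicate 1 and was 1010-fold without that library. TraesCS1B02G097900, with 47.7 ± 18.1 TPM in WT grain, was the one not silent, with 1, 10 and 0 counts in E82 grain against 278, 196 and 400 in WT grain, or 1.24% of the WT level (0.163% without E82 grain replicate 2).

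TraesCS1B02G126100 was high in both tissues of WT, at 51.1 ± 12.3 TPM in grain and 87.4 ± 25 TPM in leaf (SD, n = 3 each). It had 1, 0 and 1 counts in E82 grain, against 4073, 5534 and 4914 in WT grain. The E82 leaf libraries held 0, 0 and 1 counts, against 4852, 4346 and 5062 in WT leaf. These are at least 1450-fold and 2200-fold lower. TraesCS1B02G124100 was also silent in both tissues, with 0 counts in every E82 library, against 1609, 1604 and 1478 in WT grain and 1999, 2603 and 962 in WT leaf.

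TraesCS1B02G129000 had the highest level of the stretch in WT leaf, at 209 ± 13 TPM (SD, n = 3). It kept a small number of counts in E82 leaf, 62, 134 and 64, against 22573, 22358 and 15424 in WT leaf, or 0.317% of the WT level. In grain it had 0 counts in E82, against 450, 399 and 264 in WT. Its counts in WT grain were far below those in WT leaf, so a like remainder in E82 grain could lie under the floor of 3 counts. TraesCS1B02G126900, at 90.3 ± 26.5 TPM in WT leaf, had 27, 47 and 13 counts in E82 leaf, against 3981, 3867 and 1601 in WT leaf, or 0.694%. TraesCS1B02G104600 had 0, 1 and 0 counts in E82 leaf, against 4652, 6084 and 5044 in WT leaf, which is at least 2400-fold lower, and 0 counts in E82 grain, against 489, 537 and 635 in WT grain. TraesCS1B02G102100 had 0 counts in E82 leaf, against 261, 256 and 24 in WT leaf.

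Functions were taken from the study for 6 genes of the stretch, found among those it annotated for 1 co-expression module of the grain. That they share a module follows from how they were found. The module itself comes from a network published earlier. Each was silent in E82 grain. TraesCS1B02G106400 is annotated with alpha-mannosidase activity, the trimming of mannose from sugar chains, and had 0 counts in E82 grain, against 140, 44 and 51 in WT grain. TraesCS1B02G122100 is annotated with UDP-glycosyltransferase activity, the transfer of a sugar onto another molecule, and had 0 counts in E82 grain, against 424, 667 and 691 in WT grain. TraesCS1B02G094700, annotated with transfer of glycosyl groups, had 1, 0 and 0 counts in E82 grain, against 453, 576 and 262 in WT grain. Of these 3 genes, TraesCS1B02G106400 had no count in leaf, and the other two had 0 counts in each E82 leaf library.

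A pair of genes relates to microtubules, the filaments along which motor proteins carry cargo and which form the spindle that separates chromosomes. TraesCS1B02G123200, annotated with microtubule binding, had 1, 0 and 1 counts in E82 grain, against 1751, 1418 and 1226 in WT grain, and 2, 0 and 0 counts in E82 leaf, against 557, 451 and 348 in WT leaf. TraesCS1B02G118200, annotated with a microtubule-based process, had 0 counts in E82 grain, against 1142, 1431 and 1660 in WT grain, and 1, 0 and 0 counts in E82 leaf, against 441, 292 and 0 in WT leaf. Both were low in every E82 library. TraesCS1B02G129400, annotated with regulation of gene expression and of RNA metabolism, had 2, 1 and 1 counts in E82 grain, against 2624, 2267 and 2006 in WT grain. In leaf it had 0, 20 and 0 counts in E82, against 445, 854 and 268 in WT, so that 1 E82 leaf library held a few counts.

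The genes that kept counts in E82 were few. TraesCS1B02G111100 was the 1 gene kept in both tissues, with 292, 154 and 166 counts in E82 grain, against 223, 310 and 277 in WT grain, and 177, 421 and 255 in E82 leaf, against 75, 102 and 430 in WT leaf. The groups overlapped in both tissues. Its levels were 1.99 ± 0.59 TPM in E82 grain, 2.11 ± 0.532 TPM in WT grain, 2.27 ± 1.03 TPM in E82 leaf and 3.11 ± 3.58 TPM in WT leaf (SD, n = 3 each), or 82% of WT in grain and 90.9% in leaf by CPM. The leaf value rested on WT leaf replicate 3 and was 260% without it. The annotation gives it 1 transcript of 2036 bases, and all of its counts were whole numbers.

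TraesCS1B02G118100, whose longest transcript has 461 bases, was kept in grain, with 174, 106 and 62 counts in E82, against 148, 165 and 105 in WT, or 84.4%. Its level was 8.68 ± 3.4 TPM in E82 grain and 8.78 ± 2.13 TPM in WT grain (SD, n = 3 each). In leaf it had 89, 48 and 108 counts in E82, against 19, 0 and 0 in WT, so that it was not counted in WT leaf. Before rounding, its counts were not all whole numbers. They were 174.02 in E82 grain replicate 1, 148.07 in WT grain replicate 1 and 107.99 in E82 leaf replicate 3. TraesCS1B02G101000 came next, with 115, 29 and 51 counts in E82 grain, against 122, 214 and 109 in WT grain, and 51, 54 and 131 in E82 leaf, against 141, 456 and 10 in WT leaf. It stood at 47.2% of WT in grain and 32.4% in leaf, the highest values among the reduced genes of each tissue. Single libraries decided its class, since it stood at 61.0% in grain without E82 grain replicate 2, 57.7% without WT grain replicate 2, and 80.3% in leaf without WT leaf replicate 2. Without E82 leaf replicate 3 the leaf value was 21.0%.

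Reduced genes mostly kept a few percent of the WT level. In grain the 32 genes stood at 0.286% to 47.2% of WT, with a median of 2.88%, and 24 of them were under 10%. Of these 32, 6 had at least 10 counts in each E82 grain library and 21 had an E82 library without a count. The E82 libraries all lay below the WT libraries in 28 of the 32, against 37.8% of all genes reduced in grain. The genes of the stretch were selected on these values. In leaf the 27 genes stood at 0.119% to 32.4%, with a median of 1.52%, and 21 were under 10%. There 11 had at least 10 counts in each E82 library and 11 had an E82 library without a count. The lines did not overlap in 26 of the 27, against 65.9% of all genes reduced in leaf, and here too the genes were selected on these values.

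The counts left in E82 sat in a small number of genes. Over the 3 E82 grain libraries the stretch held 3542 counts, of which 52.9% fell to 5 genes, TraesCS1B02G111100, TraesCS1B02G126500, TraesCS1B02G118100, TraesCS1B02G102700 and TraesCS1B02G123700. Over the E82 leaf libraries it held 7899 counts, of which 48.5% fell to TraesCS1B02G120300, TraesCS1B02G111100, TraesCS1B02G123100, TraesCS1B02G126500 and TraesCS1B02G119200. These genes are named because they ranked highest in E82. TraesCS1B02G126500 had 149, 234 and 103 counts in E82 grain, against 2453, 3705 and 4191 in WT grain, and 155, 356 and 153 in E82 leaf, against 1487, 1235 and 1178 in WT leaf. TraesCS1B02G102700 had 118, 52 and 58 counts in E82 grain, against 5776, 3550 and 3578 in WT grain. In both genes each E82 library held counts, all below each WT library of the tissue.

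TraesCS1B02G120300 had 6, 127 and 45 counts in E82 grain, against 1324, 1667 and 1991 in WT grain, and 533, 484 and 255 in E82 leaf, against 579, 2019 and 1705 in WT leaf. TraesCS1B02G123100 had 50, 2 and 15 counts in E82 grain, against 1676, 1536 and 1420 in WT grain, and 184, 347 and 137 in E82 leaf, against 1677, 2142 and 1764 in WT leaf. For both genes E82 leaf held more than E82 grain. TraesCS1B02G123700 was low in WT grain too, with 3, 24 and 0 counts there, against 178, 18 and 10 in E82 grain, and most of its E82 grain counts came from replicate 1.

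**Figure D3:**
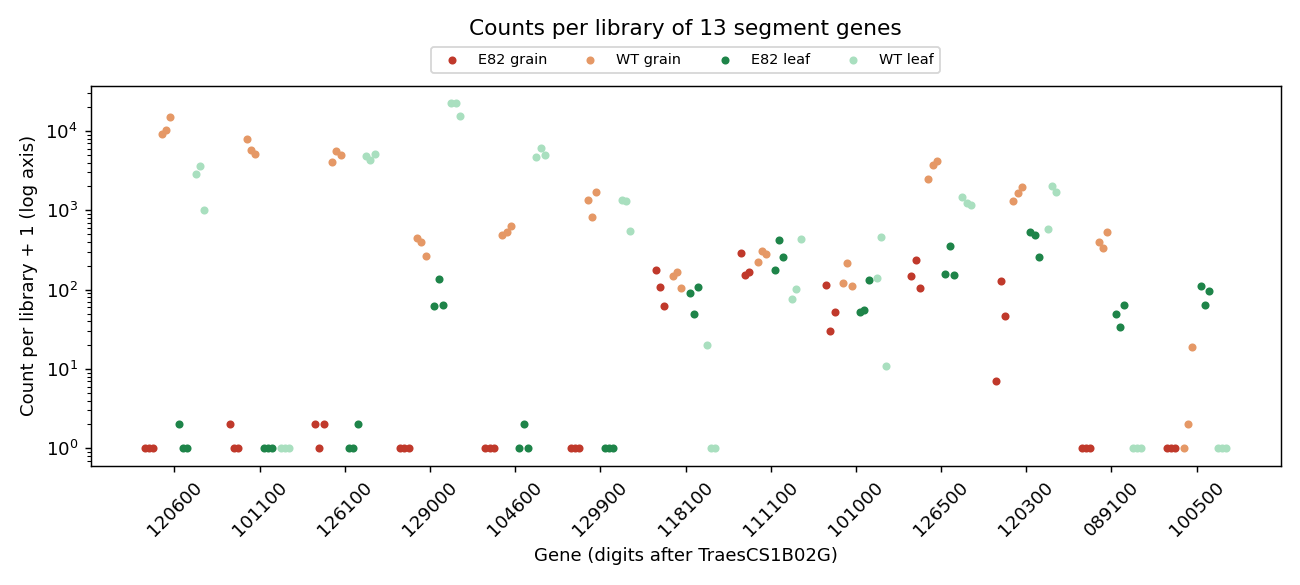
Counts per library plus 1, on a log axis, of 13 genes of the stretch, with the 3 libraries of E82 grain, WT grain, E82 leaf and WT leaf side by side. The first 6 genes lack counts or nearly so in E82 grain, TraesCS1B02G118100 and TraesCS1B02G111100 overlap between the lines in grain, and the last 2 have counts in E82 leaf but none in WT leaf.

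A few genes had counts in E82 where WT had none. Of the 221 genes of the stretch without a count in WT leaf, 2 had at least 10 counts in each E82 leaf library, against 5.78% of all genes without a count in WT leaf. One was TraesCS1B02G100500, with 110, 64 and 95 counts in E82 leaf, against 0 in each WT leaf library, and 0 counts in E82 grain, against 0, 1 and 18 in WT grain. The other was TraesCS1B02G089100, with 49, 33 and 63 counts in E82 leaf, against 0 in each WT leaf library, and 0 counts in E82 grain, against 400, 337 and 533 in WT grain. In grain 0 of the 141 genes without a count in WT had 10 in each E82 library, against 0.218% of all such genes.

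Reads that fit several transcripts, homeologs included, are divided among them by the pseudoalignment, which leaves values that are not whole. Of the 150 genes silent in grain, 114 (76.0%) had such a value in a WT grain library, to a tolerance of 0.005, against 28 of the 34 reduced or kept genes (82.4%) and 79.7% of all counted genes. In leaf it was 43 of 60 (71.7%) against 25 of 28 (89.3%), and 79.5% of all counted genes. Among E82 values above 0, 60.0% were not whole in the silent genes of grain and 60.0% in the reduced or kept genes, and in leaf 60.0% and 76.1%. The part that shared reads play in the counts left in E82 was not tested. The longest transcript had a median of 1672 bases in the genes silent in grain and 2159 in the other counted genes, and in leaf 1860 and 1866 bases. The median WT level was 2.43 TPM for silent and 3.16 TPM for other genes in grain, and 7.35 and 10.3 TPM in leaf.

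Grain and leaf were compared within each line. The E82 counts had entered the choice of the stretch, so the results in E82 are a description. The difference between tissues in WT did not enter the choice of the stretch and was tested. In WT, 230 of its genes passed the filter on low counts, and 45 of them were higher in grain (19.6%, against 21.3% of all genes tested) and 15 higher in leaf (6.52%, against 8.59%), called at an adjusted p-value below 0.05 in edgeR's quasi-likelihood test of 64739 genes. The shares were near those of the genome. The median log2 fold change of grain over leaf was 0.61 over the genes of the stretch and 0.72 over all genes tested, and 35 of the 45 genes higher in grain had no count in any WT leaf library and so passed the filter through grain alone. The number of calls rested on each WT grain library, since it was 17 without replicate 1 and 16 without replicate 2 or replicate 3.

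Among the genes called, the largest differences towards grain were those of genes without a count in WT leaf, whose WT grain values stand here or above. They passed the filter through grain alone, so their p-values only restate counts in grain against none in leaf. TraesCS1B02G124600 was at least 2240-fold higher in WT grain than in WT leaf (adjusted p = 0.00426 in edgeR's quasi-likelihood test), and TraesCS1B02G101100 at least 1530-fold (adjusted p = 0.00178). TraesCS1B02G116200 had 917, 823 and 771 counts in WT grain and none in WT leaf, at least 203-fold higher (adjusted p = 0.0038), and 19, 1 and 0 counts in E82 grain and 0, 20 and 0 in E82 leaf. TraesCS1B02G088600 was also at least 203-fold higher in WT grain (adjusted p = 0.0145), but its bound was 100-fold without WT grain replicate 2, and its call was lost without that library (adjusted p = 0.07) or without replicate 1 (adjusted p = 0.0672). TraesCS1B02G120600, the gene with the highest grain level, had a log2 fold change of 1.81 (standard error 0.41, adjusted p = 0.0238). For TraesCS1B02G104500 it was 4.75 with a standard error of 1.87, which missed the threshold (adjusted p = 0.115).

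Among the genes called, the largest difference towards leaf was that of TraesCS1B02G098600, with 10, 0 and 0 counts in WT grain and 1114, 1167 and 675 in WT leaf, a log2 fold change of -8.47 (standard error 1.71, adjusted p = 0.0182 in edgeR's quasi-likelihood test). Without WT grain replicate 2 or 3 its adjusted p-value was 0.0571 or 0.055. TraesCS1B02G129000 followed at -6.17 (standard error 0.38, adjusted p = 0.00152). TraesCS1B02G128000, with 22, 35 and 35 counts in WT grain and 521, 895 and 864 in WT leaf, stood at -5.12 (standard error 0.54, adjusted p = 0.00267) and was at 0 in every E82 library. TraesCS1B02G098800, with 5, 68 and 28 counts in WT grain and 870, 743 and 664 in WT leaf, stood at -4.99 (standard error 0.97, adjusted p = 0.0164, and 0.0594 without WT grain replicate 3). TraesCS1B02G126100, high in both tissues, was at -0.46 (standard error 0.26, adjusted p = 0.242), and the kept gene TraesCS1B02G111100 at -0.21 (adjusted p = 0.898).

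The 6 genes with a known function were found through a co-expression module of the grain, and each was counted in WT grain. The number of them called higher in grain is therefore a description. Of the 6 genes, 3 were called higher in WT grain, where 21.3% of all genes tested were. They were TraesCS1B02G106400 (alpha-mannosidase, at least 19.7-fold, adjusted p = 0.0305 in edgeR's quasi-likelihood test, and at least 10.9-fold without WT grain replicate 1), TraesCS1B02G123200 (microtubule binding, log2 fold change 1.28, adjusted p = 0.0352) and TraesCS1B02G129400 (regulation of gene expression, 1.78, adjusted p = 0.0244). Of these, TraesCS1B02G106400 had no count in WT leaf and passed the filter through grain alone. The log2 fold changes of TraesCS1B02G094700, TraesCS1B02G118200 and TraesCS1B02G122100 were 0.98, 2.19 and 1.23, with adjusted p-values of 0.347, 0.355 and 0.369. In E82 all 6 were at or near 0 in both tissues, apart from the 20 counts of TraesCS1B02G129400 in 1 leaf library.

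**Figure D4:**
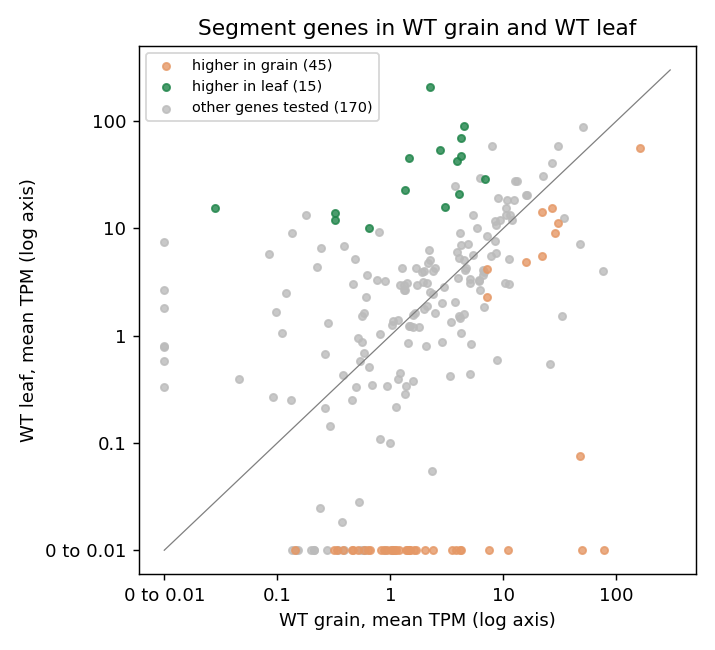
Mean TPM in WT grain and WT leaf, both on log axes, of the 230 genes of the stretch that were tested, coloured by edgeR's quasi-likelihood call, with values under 0.01 drawn at 0.01. The 45 genes higher in grain include many at 0 in leaf, and the 15 higher in leaf all lie above the grey line of equal level.

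Most of the genes called between the WT tissues were silent in E82. Of the 45 higher in WT grain, 35 were silent in E82 grain, 10 reduced and 0 kept, and of the 15 higher in WT leaf, 10 were silent in E82 leaf and 5 reduced. These counts follow from the choice of the stretch.

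In E82 only 31 genes of the stretch passed the filter on low counts, against 230 in WT. In edgeR's quasi-likelihood test 11 genes came out higher in E82 leaf than in E82 grain (35.5%, against 23.2% of all 64737 genes tested), and 0 were higher in grain, against 27.2% of all genes. Of the 11 genes, 9 had no count in any E82 grain library and passed the filter through leaf alone, and all genes of the stretch had been selected for low counts in E82, so the count and its share are a description and say nothing particular to the stretch. At an unadjusted p-value under 0.05, 1 gene was higher in grain, and DESeq2 and edgeR's exact test also called 0 in that direction. A single gene was called higher in grain where all 12 libraries shared one spread, without E82 grain replicate 3 and without E82 leaf replicate 3, a different gene each time. The number higher in leaf was 6, 5 and 6 without E82 leaf replicates 1, 2 and 3.

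Against the floor, TraesCS1B02G100500 was at least 31.4-fold higher in E82 leaf, TraesCS1B02G129000 at least 29.9-fold and TraesCS1B02G095000 at least 29.5-fold. TraesCS1B02G095000 had 0 counts in E82 grain, against 424, 222 and 407 in WT grain, and 45, 33 and 171 counts in E82 leaf, against 2645, 463 and 947 in WT leaf. Its bound was 13.4-fold without E82 leaf replicate 3. TraesCS1B02G104800 had 0 counts in E82 grain, against 331, 323 and 630 in WT grain, and 47, 47 and 78 counts in E82 leaf, against 257, 388 and 216 in WT leaf. It was at least 20.1-fold higher in E82 leaf than in E82 grain. All 4 lacked a count in E82 grain.

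Of the genes with counts in both E82 tissues, 2 were called. TraesCS1B02G123100 had a log2 fold change of grain over leaf of -3.45 (standard error 0.95, adjusted p = 0.0165) and TraesCS1B02G120300 one of -2.90 (standard error 0.87, adjusted p = 0.0243), both by edgeR's quasi-likelihood test. In WT the same fold changes were -0.71 (adjusted p = 0.0961) and -0.27 (adjusted p = 0.745). The E82 counts of both genes had entered the choice of the stretch, so their E82 p-values are a description. Whether the tissue difference itself differs between the lines was not tested for them. The remaining called genes were TraesCS1B02G089100, at least 17.0-fold higher in E82 leaf, TraesCS1B02G092600, TraesCS1B02G102000, TraesCS1B02G109000 and TraesCS1B02G117400.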

How the data were processed

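RNA depleted of rRNA was sequenced from 12 libraries. The p-values rest on the spread between the 3 plants within each group, taken jointly over both groups compared. The groups differed in this spread, as given above. Trimming by the authors used Trimmomatic 0.36, and pseudoalignment to the IWGSC transcript annotation used kallisto 0.44.0. They deposited estimated counts per gene, not normalized, and the TPM of each transcript per library. The counting is not stated to use strand, so overlapping antisense genes cannot be told apart. Estimated counts were rounded, and deposited TPM values were summed per gene, which puts genes of different length on one scale. All columns of the count table belonged to the 12 libraries.

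The 410 genes and the lists were chosen with earlier results of these data known. Grain and leaf were compared within each line on 6 libraries with edgeR 4.0.16 in R 4.3.3 (TMM, quasi-likelihood test, CPM sum above 1, Benjamini-Hochberg adjustment over all genes tested, threshold 0.05), a code tested on simulated data. The study used edgeR 3.22.5 in R 3.6.3. Counted and silent genes were set by rounded counts, not scaled for depth, and the ratio for kept genes by TMM-scaled CPM. No test was made of these classes. Genes were named by fixed rules: the 6 with the highest TPM per WT tissue, the 4 largest changes per direction and line among calls without overlap and at least 1 CPM, kept genes, 3 genes at each side of each end, and the 6 annotated genes. Others are marked as picked for their values or stand in the ranking named beside them. Alternatives were DESeq2 1.42.0, limma 3.58.1 on log2 TPM with a pseudocount of 1 or 0.1, where folds of low genes are understated, edgeR's exact test, RLE or no scaling, other filters, a shared spread, a replicate block, other limits for silent and kept, thinned counts, and leaving out each library. Replicate numbers were not used to pair libraries. Python 3.11.15, pandas 2.3.3, numpy 2.4.6 and matplotlib 3.10.9 were used for summaries and plots. Sequences of these genes were not analysed here.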

Additional observations from a re-analysis of the deposited data

Results flagged for a closer look

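TraesCS1B02G089100 moved in opposite directions in the tissues and lines. E82 was below WT in all grain libraries and above it in all leaf libraries, and leaf was above grain in all E82 libraries and below it in all WT libraries. E82 grain had 0 counts, against 400, 337 and 533 in WT grain, while E82 leaf had 49, 33 and 63 counts, a mean of 0.847 CPM by library total, against 0 counts in WT leaf. The leaf part of this pattern was not particular to the gene. Of all genes without a count in WT leaf, 5.78% had at least 10 counts in each E82 leaf library. The WT leaf libraries also detected fewer genes than any other group. The difference between the tissues in the effect of the line was not tested. Groups of 3 libraries were too small for a check of single libraries far from the others.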

How the results depend on the processing

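The numbers of silent genes stayed within 1.5 times under every other limit and with thinned counts. With libraries left out, the silent genes numbered 154 to 161 in grain and 61 to 95 in leaf, and the kept genes 2 to 3 in grain and 1 to 2 in leaf. With a kept level of at least 0.25 of WT, 5 genes were kept in grain and 2 in leaf. As a share of summed TPM, the stretch held 0.175% in WT grain and 0.225% in WT leaf. Without its 10 genes of highest count the share of counts was 0.00233% in E82 grain, 0.172% in WT grain and 0.194% in WT leaf. The genes called between tissues numbered 53 to 82 in WT and 8 to 11 in E82 under other tools, filters and scalings, against 60 and 11. With libraries left out they numbered 16 to 64 in WT and 5 to 12 in E82. Whether replicate numbers pair grain with leaf could not be decided. The deviations of libraries with the same number correlated at -0.00189 to 0.024 in WT and -0.00163 to 0.0145 in E82. Those of libraries with different numbers correlated at -0.0197 to 0.0149 in WT and -0.0149 to 0.0112 in E82. With 3 libraries per group, values near 0 across tissues do not exclude shared plants. A replicate block gave 15 calls in WT and 5 in E82. Of the tissue calls of genes named for their large changes, 185 of 192 under the alternatives kept direction and call and 7 lost the call. The other named genes were not followed in this way. Of all 60 WT calls, 16, 14 and 15 were shared without WT grain replicates 1, 2 and 3. The causes of these changes were not tested. Depth limits the silent genes, since levels under the floor of 3 counts could not be told from 0.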
